A study of Mus musculus with 6 samples.

Results

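The genes described here are those of the axon guidance families that also act on vessels: the semaphorins of classes 3 to 7, their plexin receptors, the netrins, the Unc5 netrin receptors, the Slits and their Robo receptors. They were taken by gene symbol from the expression tables of choroid endothelial cells (ECs) at postnatal day 5 (P5) and postnatal day 30 (P30). Of 22026 gene symbols listed in every sample, 46 matched. Of these, Unc50 and Unc5cl only share the first letters of the Unc5 symbol and are not netrin receptors of this family. They are reported apart, which leaves 44 guidance genes. By family these are 7 class 3 semaphorins, 13 semaphorins of classes 4 to 7, 9 plexins, 4 netrins, 4 Unc5 receptors, 3 Slits and 4 Robo receptors.

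RNA was sequenced from choroid ECs, the cells that line the vessels behind the retinal pigment epithelium (RPE), in 3 isolations at P5 and 3 isolations at P30. The mice were of a mixed 129/B6 strain at both ages, with no genetic change and no treatment named in the labels, and tissue of 7 animals was pooled in each isolation. ECs were labelled in the living animal by an injected antibody against the EC junction protein VE-Cadherin, and labelled cells were sorted from digested RPE and choroid by flow cytometry. Both sexes were used for the P30 animals per the study's methods, and the sex of the P5 animals is not given in the sources used here. The values are FPKM, in which read fragments are scaled by transcript length and by a factor for each sample, so that levels of different genes can be compared. Per the study's methods upper quartile normalization was used. The summed FPKM of a sample lay between 1432700 and 1485332 at P5 and between 1571227 and 1734639 at P30. Read counts were not used here, the depth of each sample is therefore unknown, and a gene listed at an FPKM of 0 is not taken as absent.

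Guidance proteins were named for steering growing axons, and the same families steer the tips of growing vessels. Class 3 semaphorins are secreted and act through neuropilins, which bind the ligand, and plexins, which carry the signal into the cell, while the other classes mostly stay on the membrane and bind plexins directly. In ECs, Plxnd1 is the plexin best known for restraining and directing vessel growth, Unc5b is a netrin receptor of sprouting capillaries, and Robo4 is a Robo receptor found mainly in endothelium and known for stabilizing vessels.

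Of the 44 guidance genes, 35 passed the filter on low values (a mean FPKM of 5 or more at either age) and were tested, among 12481 genes in all. The test was limma on log2(FPKM + 1), and a gene is said here to have risen or fallen only if its adjusted p was under 0.01 and its mean FPKM + 1 differed at least 2-fold. Differences are given on the log2(FPKM + 1) scale as P30 minus P5, which understates the change of low genes, each with its standard error (SE). With these limits 7 guidance genes rose from P5 to P30, Ntn4, Sema3c, Ntn1, Robo3, Sema3f, Sema7a and Sema3g, and 3 fell, Robo1, Unc5b and Sema6c. That is 28.6% of those tested, against 11.7% of all genes tested, and by direction 5.89% of all genes rose and 5.82% fell. Another 5 guidance genes had an adjusted p under 0.01 with less than a 2-fold difference, namely Plxnd1, Sema6d and Sema6a with lower means at P30 and Plxna2 and Sema6b with higher means. With an adjusted p under 0.05 and no limit on the fold, 13 were higher and 7 lower at P30, where 16.1% and 22.4% of all genes were. Of these, 5 had an adjusted p between 0.01 and 0.05 (Sema3a, Robo4, Sema4c, Plxnc1 and Sema3b). The other 15 had one of 0.05 or more. With no filter, limma was refitted on all 22026 listed genes, which alters the estimated spread as well as the number of genes adjusted for. In that fit Ntn4 and Ntn1 were the 2 that still rose and Robo1 and Unc5b the 2 that fell. The guidance genes had a median log2 difference of 0.13 and a median absolute difference of 0.88, against -0.10 and 0.45 over all genes tested. The 2 ages did not overlap in 23 of the 35 guidance genes, or 65.7%, against 55.1% of all genes tested. P30 lay above P5 in 13 (22% of all genes) and below it in 10 (33% of all genes). The p-values measure the spread between pooled isolations, and that spread was wider at P30, with a median SD on the log2 scale of 0.26 against 0.13 at P5.

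**Figure D1:**
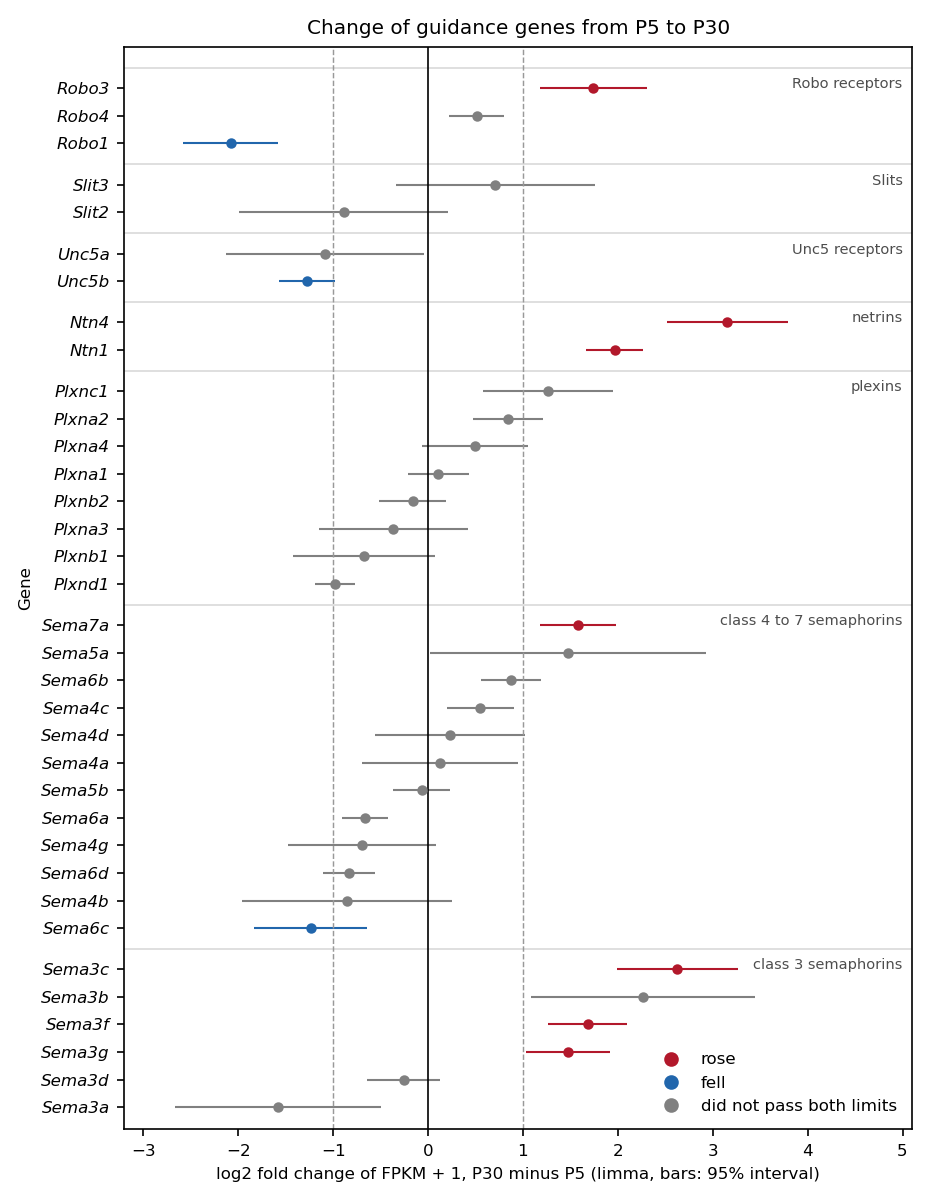
Log2 difference of FPKM + 1 from P5 to P30 for the 35 guidance genes tested, with the 95% interval from limma as bars and dashed lines at a 2-fold change of the fitted value. Genes that rose are red, genes that fell are blue and the others are grey. Ntn4 lies farthest to the right at 3.16 and Robo1 farthest to the left at -2.08.

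The sorted cells had high levels of endothelial markers. The summed FPKM of 10 such genes, Pecam1, Cdh5, Kdr and Plvap among them, lay between 21779 and 23403 at P5 and between 30645 and 37052 at P30, and all 10 were above 0 in every isolation. The genes did not all follow the sum. In 6 of the 10 every P30 value lay above every P5 value, and Plvap had means of 4692 at P5 and 11590 at P30. Cdh5 was lower in every P30 isolation, with means of 2971 and 1885 (adjusted p = 0.00205 from limma). Pecam1 overlapped between the ages, with means of 1611 and 1421. Marker lists of other cells were lower but differed between isolations. The sum of 8 RPE markers lay between 66.5 and 152 at P5 and was 3825, 2133 and 499 in P30 isolations 1, 2 and 3, and that of 8 photoreceptor markers lay between 2.70 and 9.60 and then at 366, 244 and 41.8. Over 8 pericyte markers the sum was 1798, 945 and 479 in the P5 isolations and 1913, 6588 and 4023 in the P30 isolations. For 6 smooth muscle markers the sum lay between 85.4 and 175 at P5 and between 311 and 1083 at P30, and for 8 fibroblast markers between 742 and 1212 and between 1821 and 4559. The leukocyte, melanocyte, erythroid, Schwann cell and neuron, and lymphatic lists had P30 ranges of 314 to 795, 140 to 1281, 436 to 1536, 45.6 to 201 and 517 to 645, against 498 to 755, 146 to 501, 166 to 488, 11.6 to 44.3 and 362 to 496 at P5. By the limits above, 5 of 7 tested RPE markers rose, as did 3 of 6 photoreceptor, 2 of 5 smooth muscle, 1 of 8 pericyte, 1 of 8 fibroblast, 1 of 4 Schwann cell and neuron and 1 of 10 endothelial markers, where 5.89% of all genes rose. Ptprc, 1 of 6 leukocyte markers, fell, and no tested melanocyte, erythroid or lymphatic marker passed. Cd3e, a marker of T cells, was listed at 0 in every isolation. The part of these other cells in the changes described here was not tested, and in sorted bulk samples fewer cells of a type cannot be told apart from less RNA per cell.

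Promoter sequences are shown for the guidance genes at both ends of the range of change, taken from RefSeq (build GRCm38.p6), in which 36 of the 44 genes have an annotated start. Shown are the 250 bases before the start for the genes with a single start that rose most, Ntn4 and Sema3c, and that fell most, Robo1 and Unc5b. The windows are chr10:93640799-93641048 (plus strand) for Ntn4, chr5:17574566-17574815 (plus) for Sema3c, chr16:72662899-72663148 (plus) for Robo1 and chr10:60831582-60831831 (minus) for Unc5b. Capitals mark matches on either strand to the GC box (GGGCGG) and to an ETS core (CCGGAA), a motif of transcription factors that include regulators of endothelial genes.
Ntn4: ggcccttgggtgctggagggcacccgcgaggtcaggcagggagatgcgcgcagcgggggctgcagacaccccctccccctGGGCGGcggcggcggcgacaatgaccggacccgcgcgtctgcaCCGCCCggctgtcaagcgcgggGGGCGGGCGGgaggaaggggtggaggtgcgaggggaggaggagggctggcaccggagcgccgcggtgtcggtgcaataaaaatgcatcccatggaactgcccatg
Sema3c: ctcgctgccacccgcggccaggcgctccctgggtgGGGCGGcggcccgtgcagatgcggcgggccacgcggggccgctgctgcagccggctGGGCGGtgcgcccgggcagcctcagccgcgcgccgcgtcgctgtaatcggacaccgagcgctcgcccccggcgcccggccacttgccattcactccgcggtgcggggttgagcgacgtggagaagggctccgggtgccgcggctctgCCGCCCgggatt
Robo1: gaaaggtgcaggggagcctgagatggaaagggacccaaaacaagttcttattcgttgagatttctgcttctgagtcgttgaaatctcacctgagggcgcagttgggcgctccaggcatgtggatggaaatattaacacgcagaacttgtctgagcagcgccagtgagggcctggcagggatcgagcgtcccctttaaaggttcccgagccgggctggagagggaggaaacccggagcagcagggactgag
Unc5b: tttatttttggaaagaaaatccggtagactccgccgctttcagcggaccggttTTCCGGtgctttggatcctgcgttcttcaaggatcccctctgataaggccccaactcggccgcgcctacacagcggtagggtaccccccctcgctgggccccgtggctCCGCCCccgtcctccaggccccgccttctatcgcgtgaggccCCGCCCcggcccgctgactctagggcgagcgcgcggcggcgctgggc
The GC box occurred 4 times in the window of Ntn4, 3 times in that of Sema3c, 2 times in that of Unc5b and 0 times in that of Robo1, and 32.7% of all 32851 windows of this length held it. Matches in Ntn4 included a pair that share bases. The ETS core was in the window of Unc5b, 1 match on the minus strand of the window, and in 12.0% of all windows. An E-box (CACGTG, in 6.02% of all windows) and TATAAA (in 12.4%) were in none of the 4 windows. The bases G and C made up 73.2%, 78.4%, 56.0% and 66.8% of the windows of Ntn4, Sema3c, Robo1 and Unc5b, against a median of 52.4% over all windows. These are matches of letters and say nothing of binding in these cells.

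In the mm9 annotation, Ntn4 lies on chromosome 10 from 93103426 to 93209952, Ntn1 on chromosome 11 from 68022866 to 68214325, Sema7a on chromosome 9 from 57787920 to 57810671, Sema3f on chromosome 9 from 107583833 to 107612806 and Sema3g on chromosome 14 from 32031046 to 32043536. Sema3c lies on chromosome 5 from 17080099 to 17236086, Robo1 on chromosome 16 from 72663394 to 73046340, Unc5b on chromosome 10 from 60225358 to 60294329 and Plxnd1 on chromosome 6 from 115904829 to 115945023. Exons of these 9 genes shared bases with another annotated gene only for Ntn1, where a processed transcript covered 2.02% of the exon bases.

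Class 3 semaphorins were higher at P30 as a family, and 3 of the 6 tested members rose. Their summed FPKM was 503 ± 53.0 at P5 and 1408 ± 219 at P30 (SD, n = 3 at each age), a ratio of 2.80. Sema3f and Sema3g made up most of it at both ages. Sema3f, a ligand of neuropilin 2 that repels axons and restrains vessel growth, had an FPKM of 259, 232 and 211 in P5 isolations 1, 2 and 3 and of 889, 571 and 833 in P30 isolations 1, 2 and 3. The lowest P30 isolation was more than 2-fold above the highest P5 isolation, and the mean rose 3.26-fold (limma log2 difference 1.68 ± 0.18 SE, adjusted p = 0.000615). Sema3g, which is known from arterial endothelium, was at 182, 235 and 144 at P5 and at 599, 459 and 483 at P30, again with no overlap (rise of 2.75-fold, limma log2 difference 1.47 ± 0.19 SE, adjusted p = 0.00139). Sema3c, a ligand known for guiding outflow tract development, started much lower. It was at 12.5, 6.58 and 6.75 in the P5 isolations and at 56.2, 67.1 and 46.8 in the P30 isolations. Its 6.59-fold rise was the largest of the semaphorins that passed both limits (limma log2 difference 2.63 ± 0.27 SE, adjusted p = 0.000568).

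The other class 3 semaphorins did not pass both limits. Sema3b had the values 4.77, 1.94 and 2.17 at P5 and 30.2, 19.3 and 8.45 at P30. All P30 isolations lay above the P5 isolations, but they differed among themselves by more than 3-fold, and the adjusted p was over 0.01 (limma log2 difference 2.27 ± 0.50 SE, adjusted p = 0.0117). P30 isolation 1 was the highest and P30 isolation 3 the lowest. The RPE, melanocyte, photoreceptor, and Schwann cell and neuron sums had the same order at P30, and Sema3b followed the RPE sum at P5 too. Without P30 isolation 3 the gene passed both limits with a log2 difference of 2.74. Sema3a, the classic axon repellent, went the other way, from 9.03, 6.19 and 12.5 to 2.54, 4.03 and 1.04, with no overlap and an adjusted p over 0.01 (limma log2 difference -1.58 ± 0.47 SE, adjusted p = 0.0323). Sema3d was at 54.1, 62.3 and 65.8 at P5 and 43.8, 61.9 and 47.5 at P30, so that the ages overlapped (log2 difference -0.26, 95% interval -0.64 to 0.13, adjusted p = 0.248 from limma). Sema3e, the ligand that binds Plxnd1 without a neuropilin, was below the minimum for the test, with at most 0.87 FPKM in any isolation.

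Among the semaphorins of classes 4 to 7, Sema7a rose, Sema6c fell and the other 10 tested did not pass both limits. The summed FPKM of this group was 1434 ± 64.1 at P5 and 2211 ± 288 at P30 (SD, n = 3 at each age), a ratio of 1.54. Sema7a, which is tethered to the membrane by a lipid anchor and binds Plxnc1 and integrins, was the most abundant semaphorin at P30. It had an FPKM of 484, 488 and 382 in the P5 isolations and of 1702, 1147 and 1250.0 in the P30 isolations. These values place its mean above that of 97.7% of all listed genes at P5 and of 99.4% at P30. The mean rose 3.03-fold with every P30 isolation above every P5 isolation (limma log2 difference 1.58 ± 0.17 SE, adjusted p = 0.000703). Sema6c fell 2.49-fold from a low level, from 21.3, 22.1 and 17.1 to 8.05, 10.2 and 6.03 (limma log2 difference -1.24 ± 0.25 SE, adjusted p = 0.00872). This fall is near the limits. A replicate block gave it an adjusted p of 0.0182 in limma, and the p limit was missed without P5 replicate 1, 2 or 3 and without P30 replicate 1 or 3, at adjusted p between 0.0143 and 0.0533. With a pseudocount of 5 Sema6c missed the fold limit, at a log2 difference of -0.948.

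Sema6d and Sema6a were the most abundant transmembrane semaphorins at P5, and both were lower at P30, while Sema6b was higher, in each case by less than 2-fold. Sema6d, a ligand of Plxna1 known from heart development, had 463, 391 and 511 at P5 and 262, 246 and 254 at P30. Every P30 isolation was lower than every P5 isolation (limma log2 difference -0.83 ± 0.12 SE, adjusted p = 0.00194). Sema6a, a ligand of Plxna2 and Plxna4, was lower in the same way, with 213, 190.2 and 187 at P5 and 116, 131 and 123 at P30 (limma log2 difference -0.67 ± 0.10 SE, adjusted p = 0.00281). Sema6b was higher at P30, with 67.4, 76.7 and 75.9 at P5 and 146, 147 and 114 at P30 (limma log2 difference 0.88 ± 0.13 SE, adjusted p = 0.00276). Thus the ratio of Sema7a to Sema6d, which does not depend on the scaling of a sample, was 1.05, 1.25 and 0.748 in the P5 isolations and 6.49, 4.66 and 4.93 in the P30 isolations.

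Sema4c, a ligand of Plxnb2, was the most abundant class 4 semaphorin, at 156, 136 and 162 at P5 and 226, 263 and 184 at P30. The ages did not overlap, but the adjusted p was over 0.01 (limma log2 difference 0.55 ± 0.15 SE, adjusted p = 0.0239). Sema4g had 8.73, 9.16 and 5.95 at P5 and 4.26, 5.67 and 3.62 at P30, also without overlap (limma log2 difference -0.69 ± 0.33 SE, adjusted p = 0.134). The ages overlapped in Sema4a, Sema4b, Sema4d, Sema5a and Sema5b, whose log2 differences ran from -0.85 for Sema4b to 1.47 for Sema5a and whose adjusted p lay between 0.0977 and 0.794 in limma. Sema5b was nearly level, with means of 40.3 at P5 and 38.5 at P30 and a 95% interval of -0.36 to 0.24 for its log2 difference. Sema5a had 21.7, 10.3 and 4.10 at P5 and 15.6, 57.6 and 27.9 at P30. Its isolations, like those of Sema6a, followed the order of the pericyte marker sum within both ages, the highest being isolation 1 at P5 and isolation 2 at P30. That order was held by these 2 of the 35 guidance genes tested (5.71%) and by 6.74% of all genes tested. Sema4f was listed at 0 in all 6 isolations.

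**Figure D2:**
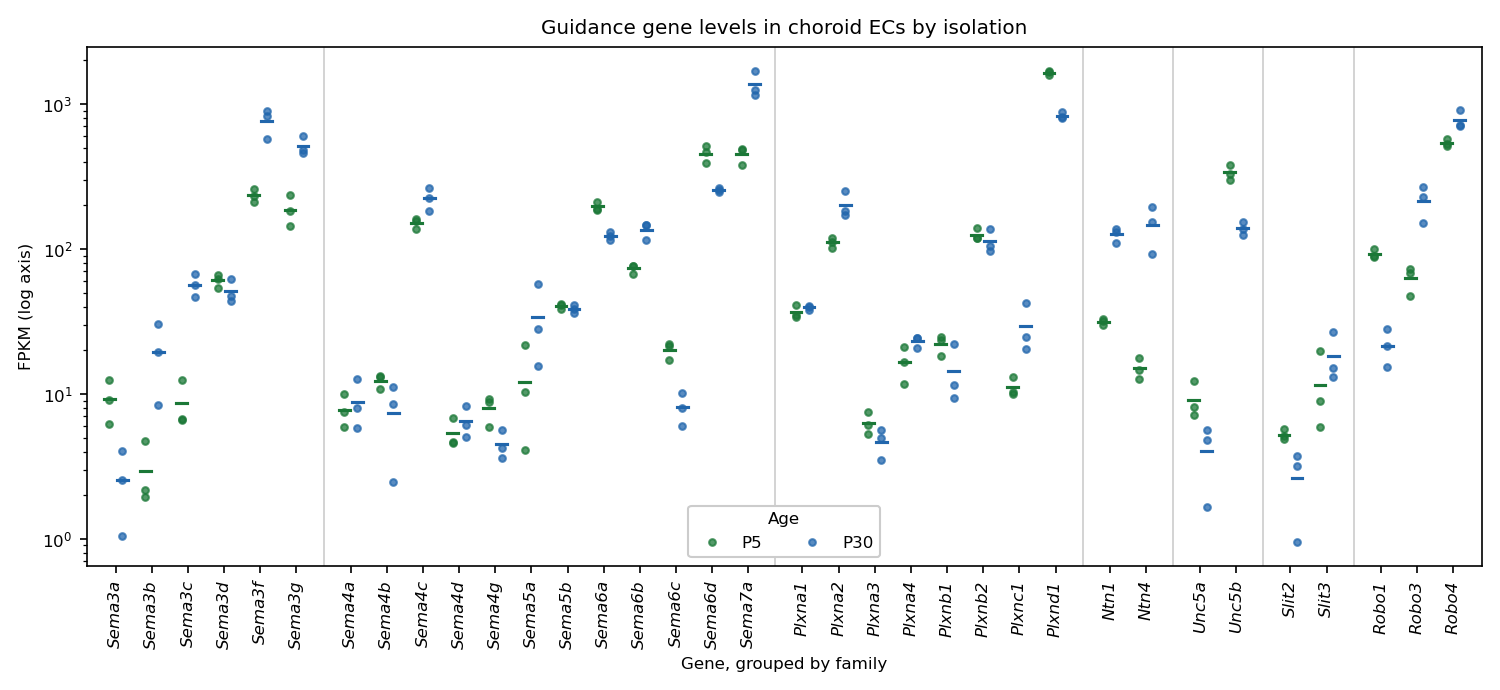
FPKM on a log axis of the 35 guidance genes tested, by family, with 1 point per isolation (green, P5 and blue, P30) and a bar at the mean of each age. Plxnd1 is the highest gene at P5, with a mean of 1645, and Sema7a at P30, with a mean of 1366.

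No plexin passed both limits, and the family was dominated by Plxnd1 at both ages. The summed FPKM of the 9 plexins was 1976 ± 20.0 at P5 and 1259 ± 70.2 at P30 (SD, n = 3 at each age), and the P5 mean was 1.57 times the P30 mean. Plxnd1, the receptor of Sema3e and, with neuropilins, of other class 3 semaphorins, had 1595, 1684 and 1656 in the P5 isolations and 880.0, 797 and 819 in the P30 isolations. It ranked number 60 among all listed genes by mean FPKM at P5 and number 279 at P30. The spread between isolations was small beside the difference, and only the fold limit was missed, by a narrow margin (1.98-fold in mean FPKM + 1, limma log2 difference -0.98 ± 0.09 SE, adjusted p = 0.000373). After quantile normalization or with values rescaled to an equal sum per sample it passed both limits, at log2 differences of -1.35 and -1.15. Leaving out P5 replicate 1 or P30 replicate 1 also brought it past 2-fold.

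Plxna2 was the plexin with a higher level at P30 at an adjusted p under 0.01. It had 112, 102 and 119.6 at P5 and 251, 183 and 172 at P30 (limma log2 difference 0.84 ± 0.16 SE, adjusted p = 0.00611). Plxnc1, the receptor of Sema7a, was at 13.2, 10.2 and 9.94 at P5 and 20.5, 24.6 and 42.6 at P30. The difference was over 2-fold and the ages did not overlap, but the adjusted p was over 0.01 (limma log2 difference 1.26 ± 0.29 SE, adjusted p = 0.0138), and the gene passed with estimated sample weights or without P30 replicate 1. The other 5 tested plexins overlapped between the ages. Plxnb2 was the most abundant of them, with 126 ± 12.8 at P5 and 113 ± 20.6 at P30 (means ± SD; log2 difference -0.16, 95% interval -0.52 to 0.19, adjusted p = 0.420 from limma). Means at P5 and P30 were 36.7 and 39.5 for Plxna1, 16.5 and 23.2 for Plxna4, 22.2 and 14.3 for Plxnb1, and 6.30 and 4.69 for Plxna3, with adjusted p between 0.132 and 0.556 in limma. Plxnb3 was below the minimum, with at most 1.56 FPKM.

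The co-receptors of the class 3 semaphorins, Nrp1 and Nrp2, were both abundant. Nrp1, which also binds VEGF, had 1296, 1241 and 1241 at P5 and 1717, 1964 and 2212 at P30, higher in every P30 isolation but by less than 2-fold (limma log2 difference 0.63 ± 0.12 SE, adjusted p = 0.00565). The size depended on the scaling. After quantile normalization the log2 difference of Nrp1 was 0.27 (adjusted p = 0.1135 from limma), and with an equal sum per sample 0.46 (adjusted p = 0.0215 from limma). Nrp2, the preferred partner of Sema3f, had 512, 472 and 540.3 at P5 and 395, 467 and 422 at P30 (limma log2 difference -0.25 ± 0.10 SE, adjusted p = 0.0934). Its log2 difference was -0.42 under both of these rescalings, at adjusted p of 0.0198 and 0.0125 in limma. The values of Nrp2 at P30 were all below those at P5, by a margin of 5.53 FPKM between the nearest pair.

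Both netrins that were tested rose, and they were among the guidance genes with the largest changes. Ntn4, a netrin found in basement membranes, where it binds laminins, had 17.6, 14.7 and 12.7 in the P5 isolations and 92.6, 153 and 194 in the P30 isolations. The mean rose 9.79-fold (limma log2 difference 3.16 ± 0.27 SE, adjusted p = 0.000310). Ntn1, the axon guidance ligand of Dcc and the Unc5 receptors, had 32.8, 29.7 and 31.9 at P5 and 110.1, 132 and 137 at P30. Its isolations agreed closely within each age, and it had the smallest adjusted p of all guidance genes (limma log2 difference 1.97 ± 0.13 SE, adjusted p = 0.000147, a rise of 4.02-fold). Both netrins were highest in P30 isolation 3, where the lymphatic sum was highest. The RPE, photoreceptor, melanocyte, smooth muscle, erythroid, and Schwann cell and neuron sums were lowest there. Both were lowest in P30 isolation 1, where the pericyte and fibroblast sums were lowest. The endothelial, leukocyte, RPE, photoreceptor, melanocyte, and Schwann cell and neuron sums were highest there. At P5 Ntn4 had the order of the pericyte, smooth muscle, melanocyte, leukocyte, and Schwann cell and neuron sums. The part of these cells in the netrin values was not tested. Ntn1 was the more abundant at P5 and the order was turned in P30 isolations 2 and 3, with a ratio of Ntn4 to Ntn1 of 0.536, 0.494 and 0.398 at P5 and 0.841, 1.16 and 1.42 at P30. Ntn3 was below the minimum, with 5.63, 2.52 and 1.70 at P5 and 0.0400, 0.620 and 0.640 at P30 and no overlap, and Ntn5 was listed at 0 throughout.

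The main netrin receptor of these cells, Unc5b, fell. Its FPKM was 331, 379.9 and 300.3 in the P5 isolations and 155, 136 and 125 in the P30 isolations. Every P30 isolation lay below every P5 isolation, and the mean fell 2.43-fold (limma log2 difference -1.27 ± 0.13 SE, adjusted p = 0.000496). Unc5b made up between 95.6% and 98.9% of the FPKM of its family in every isolation. Unc5a was also lower in every P30 isolation, with 7.10, 8.15 and 12.2 at P5 and 1.65, 5.63 and 4.79 at P30, but its adjusted p was over 0.05 (limma log2 difference -1.09 ± 0.45 SE, adjusted p = 0.0901). Unc5c was below the minimum for the test, with 1.10, 1.01 and 0.80 at P5 and 0, 0.70 and 0.20 at P30 and no overlap, and Unc5d was listed at 0. Ntn1 and Unc5b thus changed in opposite directions, and the ratio of Ntn1 to Unc5b was 0.0989, 0.0782 and 0.106 in the P5 isolations and 0.712, 0.966 and 1.09 in the P30 isolations. The other netrin receptors did not pass the limits. Neo1, a relative of Dcc, had 92.7, 88.6 and 84.4 at P5 and 74.9, 95.3 and 73.6 at P30 (log2 difference -0.13, 95% interval -0.44 to 0.18, adjusted p = 0.456 from limma). Dcc had a mean below 5 at both ages and was not tested, with 4.52, 1.71 and 0.890 at P5 and 1.0, 7.90 and 5.86 at P30.

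Of the Robo receptors, Robo1 fell and Robo3 rose, while the Slits stayed low. Robo4 was the main member at both ages. It had 534, 576 and 518 in the P5 isolations and 914, 716 and 707 in the P30 isolations, higher in every P30 isolation but by less than 2-fold and with an adjusted p over 0.01 (limma log2 difference 0.51 ± 0.12 SE, adjusted p = 0.0160). After quantile normalization its log2 difference was 0.28 and with an equal sum per sample 0.34, at adjusted p of 0.0864 and 0.0566 in limma. Robo1, the widely expressed Slit receptor of axons and ECs, fell more than any other guidance gene tested. Its values were 89.2, 99.2 and 87.9 at P5 and 15.3, 28.1 and 21.3 at P30, a fall of 4.27-fold in the mean (limma log2 difference -2.08 ± 0.21 SE, adjusted p = 0.000552). The ratio of Robo4 to Robo1 was therefore 5.99, 5.81 and 5.89 at P5 and 59.5, 25.5 and 33.1 at P30. Robo1 went from 13.2% ± 0.462 of the Robo FPKM at P5 to 2.21% ± 0.918 at P30 (SD, n = 3).

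Robo3, the divergent member known from axons that cross the midline, had 68.4, 47.8 and 72.2 at P5 and 266, 152 and 227 at P30. The mean rose 3.42-fold, and its lowest value at P30 was more than 2-fold above its highest at P5 (limma log2 difference 1.74 ± 0.24 SE, adjusted p = 0.00182). Robo3 and Robo4 are neighbours on chromosome 9 of mm9. Robo4 lies on the plus strand at chr9:37209482-37221608 and Robo3 on the minus strand at chr9:37223254-37240760, so that their 3′ ends face each other with 1646 bases between the annotated ends. How reads beyond the end of Robo4 were assigned is not given in the sources used here, and their part in the value of Robo3 was not tested. The ratio of Robo3 to Robo4 was 0.128, 0.0829 and 0.140 at P5 and 0.291, 0.212 and 0.321 at P30, higher in every P30 isolation. Robo2 was below the minimum for the test, with 2.44, 1.85 and 2.16 at P5 and 2.93, 5.05 and 4.90 at P30 and no overlap.

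Slit3 and Slit2, the secreted ligands of Robo1 and Robo2, were at low levels. Slit3 had 9.0, 5.88 and 19.8 at P5 and 13.1, 15.2 and 26.5 at P30, with overlap (log2 difference 0.71, 95% interval -0.34 to 1.76, adjusted p = 0.243 from limma). Slit2 had 4.92, 5.11 and 5.70 at P5 and 3.16, 3.72 and 0.95 at P30, lower in each P30 isolation (log2 difference -0.89, 95% interval -1.99 to 0.21, adjusted p = 0.171 from limma). Both intervals hold no change as well as a 2-fold change. Slit1 did not exceed 1.24 FPKM.

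**Figure D3:**
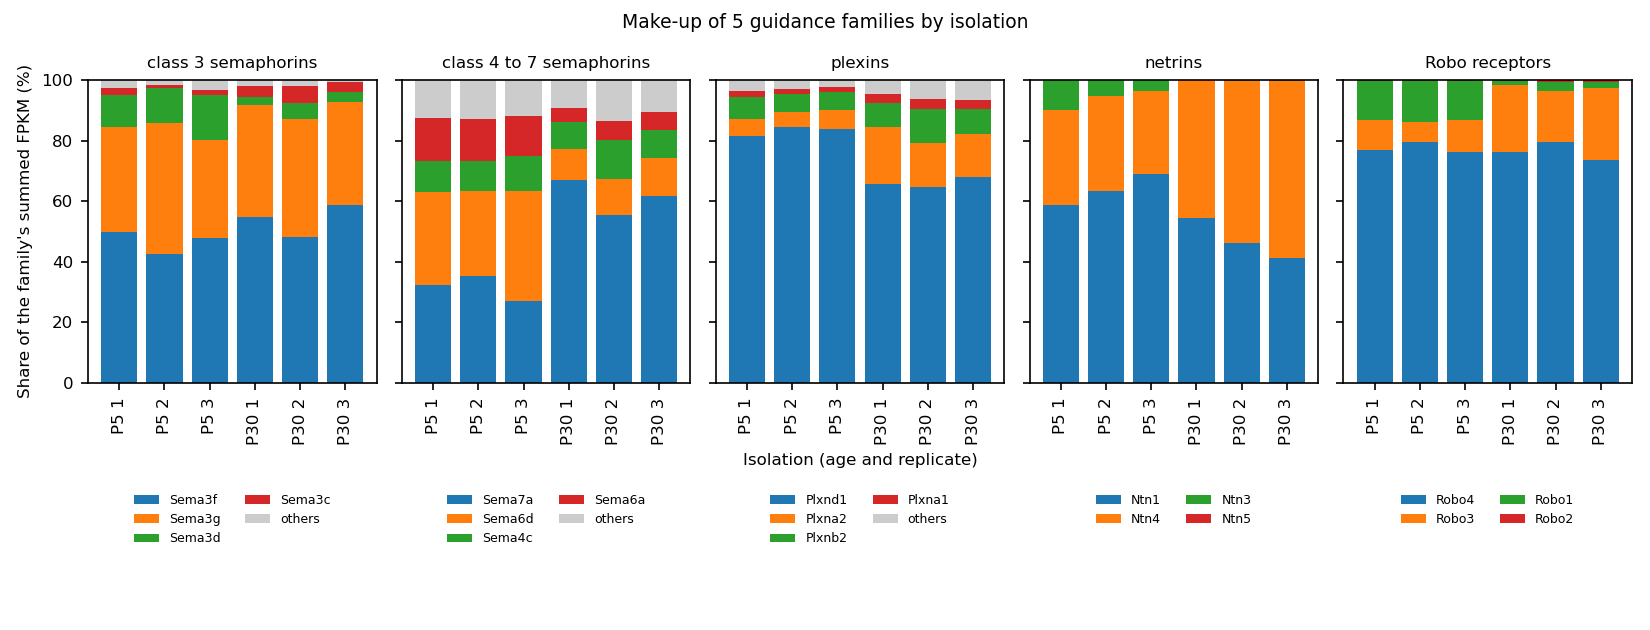
Share in percent of each family's summed FPKM taken by its members in each isolation, for 5 families (isolations numbered 1 to 3 within each age). Sema7a and Sema6d are level within classes 4 to 7 at P5 and Sema7a leads at P30, Plxnd1 stays the main plexin with a smaller share at P30, and Robo1 shrinks beside Robo4.

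Shares within a family do not depend on how the samples were scaled to each other. Sema7a took 31.5% ± 4.08 (SD, n = 3) of the FPKM of the class 4 to 7 semaphorins at P5 and 61.4% ± 5.78 at P30, while the share of Sema6d was 31.7% ± 4.11 and 11.6% ± 1.15 and that of Sema6a 13.7% ± 0.432 and 5.66% ± 0.962. Plxnd1 took 83.3% ± 1.53 of the plexin FPKM at P5 and 66.1% ± 1.78 at P30, and Plxna2 took 5.62% ± 0.493 and 15.9% ± 2.42. In each of these the values of the 3 isolations of one age lay outside the range of the other. The shares of Sema3f and Sema3g in the class 3 FPKM overlapped between the ages, 46.7% ± 3.61 and 36.9% ± 5.59 at P5 and 53.9% ± 5.25 and 36.6% ± 2.45 at P30.

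Genes that act with these families were taken from a list of co-receptors and intracellular effectors, of which 42 were tested. Of these 3 rose and 3 fell, or 14.3%, against 11.7% of all genes, with a median log2 difference of -0.18. All 3 that rose encode Rnd proteins, GTPases that bind plexins. Rnd1 had 23.6, 22.9 and 17.6 at P5 and 149.5, 198 and 74.4 at P30 (limma log2 difference 2.56 ± 0.34 SE, adjusted p = 0.00152). Rnd2 and Rnd3 had means of 19.2 and 44.9 at P5 and of 65.3 and 143.8 at P30 (log2 differences 1.70 and 1.64, adjusted p = 0.00492 and 0.00448 from limma). Rnd1 and Rnd3 were highest in P30 isolation 2, as were 46.2% of tested genes without tied values. The pericyte, smooth muscle, fibroblast and erythroid sums were highest there too. At both ages Rnd1 had the full order of the smooth muscle sum (4.97% of all genes) and Rnd3 that of the pericyte sum (6.74%). Without P5 replicate 3 none of the 3 Rnd genes passed both limits. Rnd2 missed the p limit in 5 of the 6 fits with 1 isolation left out (all but that without P30 replicate 3) and Rnd3 in 4, and a replicate block gave Rnd3 an adjusted p of 0.0137 in limma. With no trend in the fit Rnd2 and Rnd3 missed it too, at adjusted p of 0.0112 and 0.0117 in limma. Among the genes that fell, Flrt2, a membrane ligand of Unc5 receptors, had 236, 208 and 266 at P5 and 49.5, 71.7 and 73.5 at P30 (limma log2 difference -1.86 ± 0.18 SE, adjusted p = 0.000408). Srgap1, a GTPase regulator that binds Robo receptors, had 53.0, 49.6 and 50.9 at P5 and 15.7, 19.4 and 19.9 at P30 (limma log2 difference -1.44 ± 0.15 SE, adjusted p = 0.000622). Crmp1, a cytoskeletal mediator of semaphorin signals in neurons, had 21.4, 22.0 and 18.2 at P5 and 3.90, 3.87 and 4.49 at P30 (limma log2 difference -2.08 ± 0.24 SE, adjusted p = 0.000830). Flrt2 and Srgap1 passed both limits whichever isolation was left out, and Crmp1 missed the p limit without P5 replicate 2 (adjusted p = 0.0115 from limma).

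**Figure D4:**
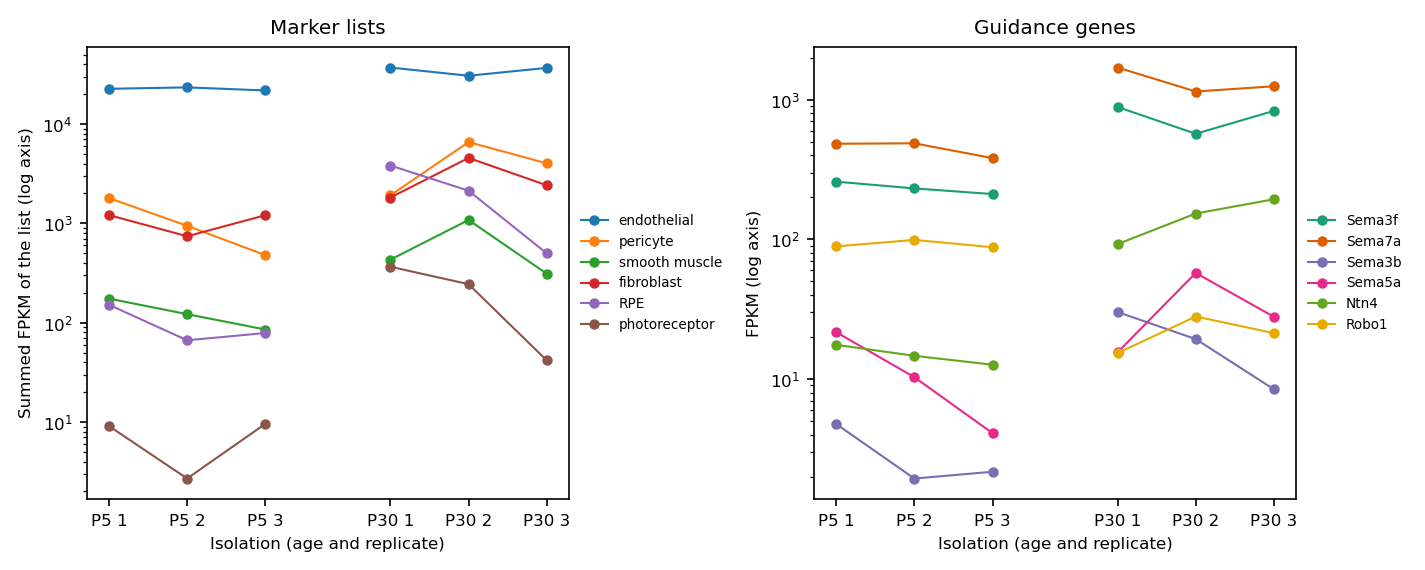
Summed FPKM of 6 marker lists (left) and FPKM of 6 guidance genes (right) in each isolation, both on log axes; lines only join the isolations of one age. Sema3b has the order of the RPE list at P30 and Sema5a that of the pericyte list, whereas Sema3f and Sema7a are lowest in P30 isolation 2, as are the endothelial list and the leukocyte list, which is not drawn.

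The P30 isolations differed in the marker sums of other cells, and the guidance genes can be read against them. Of the 7 genes that rose, Sema3f, Sema3g, Sema7a and Robo3 had their highest value in P30 isolation 1, their lowest in P30 isolation 2 and the third between, as had Plxnd1 and Sema6d, which were lower at P30. The endothelial and the leukocyte marker sums both had this order. Of the 10 endothelial markers, Tie1, Esam and Cldn5 had it themselves and the others did not. Kdr and Plvap were highest in P30 isolation 3 and lowest in isolation 2. Pecam1, Cdh5 and Emcn were lowest in isolation 3, and Tek and Erg were highest in isolation 2. The order of these sums at P30 was held by 6 of the 35 guidance genes tested (17.1%) and by 10.8% of all genes tested. At both ages, Sema3g and Sema7a had the order of the endothelial sum (5.71%, against 2.69% of all genes) and Sema3f that of the leukocyte sum (2.86%, against 2.59%). The order of the smooth muscle and erythroid sums at P30 was held by 12 of the 35 (34.3%) and by 20.2% of all genes, Sema3c and Sema6c among them. Plxna1, Plxna3, Plxna4, Plxnb1 and Plxnb2 had the smooth muscle order at both ages, 5 of 35 (14.3%) against 4.97% of all genes. The pericyte and fibroblast order at P30 was held by 6 (17.1%, against 25.9% of all genes), Robo1 among them, and that of the RPE, melanocyte, photoreceptor, and Schwann cell and neuron sums by 6 (17.1%, against 19.2%), Unc5b among them. Sema3b, Sema4a and Sema4d had the RPE order at both ages, 3 of 35 (8.57%) against 1.78% of all genes. Plxna2 had the photoreceptor order at both ages (2.86%, against 2.16%) and Sema3c the erythroid order (2.86%, against 2.64%). The lymphatic order was held by Sema5b alone (2.86%, against 8.38%). With 3 isolations at an age, a shared order is a description only. Ntn1 and Ntn4 were lowest in isolation 1 and Sema3c in isolation 3. Sema3c was the one of the 7 that was highest in P30 isolation 2, where the pericyte, smooth muscle and fibroblast sums were highest. With any 1 isolation left out, all 7 stayed past both limits. They did so too after rescaling to an equal sum of FPKM per sample, which moved the median log2 difference of all genes by -0.16.

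The 2 genes that share only letters with the Unc5 family were Unc50, which encodes a membrane protein of the secretory pathway and had 126 ± 11.8 at P5 and 158 ± 20.2 at P30 (means ± SD, adjusted p = 0.0842 from limma), and Unc5cl, which was listed at 0.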

How the data were processed

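The authors sequenced RNA of sorted choroid ECs and deposited FPKM values, 1 per gene symbol and isolation. Per the study's methods and the submitters' processing notes, the FPKM came from CASAVA 1.8.2, FastQC, TopHat alignment to mm9 and Cufflinks with GC and upper quartile normalization. Other versions, the gene annotation and the handling of strand are not given in the sources used here. FPKM keep no read number. Low values did not fall on whole multiples, so depth is unknown and no count test was run.

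Here, log2(FPKM + 1) of the deposited FPKM was fitted in limma 3.58.1 (R 4.3.3; empirical Bayes with a trend, Benjamini-Hochberg adjustment over 12481 genes with a mean FPKM of 5 or more at either age). The limits were an adjusted p of 0.01 and a 2-fold difference in mean FPKM + 1. The script was tested on simulated data. Sums, shares and figures were made in Python 3.11.15. Groups came from the labels, and isolations were separate pools. Every member is named. Values in each isolation are given for tested members past the limits, with an adjusted p under 0.05, without overlap between the ages or leading a family, and for those singled out after their values were seen (Sema5a, Sema3d, Ntn3, Robo2 and Unc5c). Members, partner and marker lists were chosen with earlier results of these data known. Alternatives are listed in the closing section.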

Additional observations from a re-analysis of the deposited data

How the results depend on the processing

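None of the guidance or partner genes that passed the limits turned direction under the alternatives tried, which were pseudocounts of 0.5 and 5, a minimum mean FPKM of 1, no filter, no trend, quantile normalization, an equal sum per sample, sample weights, the fold from the fit, a looser limit, a replicate block and each isolation left out. For all but quantile normalization and the equal sum per sample, this could not have come out otherwise. A change of filter, trend, limit, fold or block leaves the log2 difference itself as it was. The ages did not overlap in any of these genes, so pseudocounts, weights and leaving out 1 isolation cannot turn the direction. The family sums, which were recomputed with quantile normalization, an equal sum per sample and each isolation left out, kept their direction there. Their size was not always kept. For class 4 to 7 semaphorins the log2 ratio of the sums was 0.63, against 0.48 with quantile normalization and 0.46 with an equal sum per sample. For plexins it was -0.65, against -0.93 and -0.82. With no filter 2 guidance genes rose, 0 partner genes rose, and 242 genes rose and 296 fell over all. With an equal sum per sample 5 guidance genes fell, Plxnd1 and Sema6d being added, and over all genes 626 rose and 1063 fell, so that 37.1% of the calls were higher at P30 against 50.3% with FPKM as deposited (735 and 726). With an adjusted p under 0.05 and no fold limit, 13 guidance genes were higher and 7 lower at P30, 9 and 13 partner genes, and 2011 and 2794 of all genes. With 1 isolation left out, 7 to 8 guidance genes rose and 2 to 3 fell, 0 to 3 partner genes rose and 2 to 4 fell, and 396 to 849 of all genes rose and 291 to 754 fell. The lowest of these came without P5 replicate 3 (0 partner genes and 396 genes that rose) and without P5 replicate 2 (291 genes that fell). Without P5 replicate 1, 427 of all genes fell, without P5 replicate 2, 404 rose, and without P5 replicate 3, 297 fell.

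Isolations with the same replicate number did not deviate together: the correlations of deviations from the age means over same-numbered samples were -0.0618, -0.0905 and -0.0305. Whether same-numbered isolations were handled together is not given in the sources used here, and these correlations cannot show it. With the replicate block, 7 guidance genes rose and 2 fell, Sema6c being the one lost, and 585 of all genes rose and 524 fell.

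With 3 isolations at each age an exact permutation test cannot give a p below 0.1, and the depth behind each FPKM is unknown.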
